A study of Mus musculus with 18 samples.

Results

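The Hoxa genes of the mouse were followed through 3 neural lines and 2 fates. The 9 genes were taken by name from the deposited table of 27997 genes, as the rows of Hoxa2, Hoxa3, Hoxa4, Hoxa5, Hoxa6, Hoxa7, Hoxa9, Hoxa10 and Hoxa11, and every one of them was found once. The table holds 18 libraries of RNA from cultured cells, in 6 groups of 3. Both traced lines came from spinal cord in which cells with a history of expressing DNGR-1 (the product of Clec9a) carry a reporter. The tdTomato line had the genotype DNGR-1 +/- Tom+/- by its label and came from Clec9a-cre Rosa-LSL-tdTomato mice, and the EYFP line had the genotype DNGR-1 +/- EYFP+/- and came from Clec9a-cre Rosa-LSL-EYFP mice. The line from hippocampus was DNGR-1+/+ by its label and, by the study's methods, derived from Glast-Cre Huwe1 fl Rosa-LSL-EYFP mice. All groups shared the culture as adherent neural stem cells (NSCs) in EGF and bFGF on laminin, with NSCs collected after 4 days. Astrocytes were collected after 6 days, with BMP4 at 20 ng/ml for the differentiation. The replicates of a group were cultures of passages 10 to 12 of the same line, so no p-value measures the spread between animals. Where traced and hippocampal libraries were compared within a fate, both traced lines were pooled into a joint group. The spread there includes the difference between the traced lines, and their cultures count as replicates of an origin. In the other comparisons p-values measure the spread between cultures of a line. With a single line from hippocampus, region, line, DNGR-1 genotype, Cre driver and Huwe1 allele cannot be told apart. Each reporter strain is also a single line, so strain and line cannot be told apart between the traced lines.

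Hox genes encode homeodomain transcription factors and lie in 4 clusters in the mouse genome, named Hoxa to Hoxd. Within a cluster, the genes near the 3′ end are used in the hindbrain and anterior spinal cord, and those nearer the 5′ end in progressively more posterior cord, a relation known as collinearity. The forebrain, which gives rise to the hippocampus, forms in front of the domains of Hox genes. Polycomb proteins hold Hox genes silent where they are not used, and retinoic acid and Cdx factors take part in opening the clusters in the embryo. Hox proteins bind DNA together with cofactors of the TALE class, the Pbx, Meis and Pknox proteins.

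The markers of the labelled cells went with the labels in part. Otx1, a homeobox gene of the forebrain and midbrain, was at a mean log2 value of 8.0 in hippocampal NSCs and 8.46 in hippocampal astrocytes, against 5.74 to 5.89 in the 4 traced groups. Emx1, a marker of the dorsal forebrain, was listed at no more than -1.70 in any library, the hippocampal ones included. Emx2 was lower in traced than in hippocampal NSCs (-0.59, adjusted p = 0.00776, limma), while Lhx2, also of the forebrain list, had a difference of -0.26 (adjusted p = 0.0586, limma). In astrocytes all 3 forebrain genes tested were lower in the traced lines, with differences of -2.64 for Otx1, -1.24 for Lhx2 and -0.87 for Emx2 (adjusted p = 3.33e-08, 1.6e-05 and 5.27e-06, limma). Hoxa2, Hoxa3, Hoxa4, Hoxa5 and Hoxa7 stood at 5.19 or more in every hippocampal library, although the forebrain lies outside the domains of Hox genes. The origin of that line was not tested, so each traced minus hippocampal value is a value against that line as labelled. Mki67, a gene of dividing cells, fell from between 12.75 and 13.07 in NSCs to between 6.42 and 7.15 in astrocytes, and Gfap rose from at most 9.44 to at least 14.69, as Aqp4 and S100b rose in each line. Of the other NSC markers, Sox2 rose in the astrocytes of each line (1.35, 0.88 and 0.95), and Nes fell by 3.18 and 3.05 in the traced lines and had a difference of -0.22 in the hippocampal line (adjusted p = 0.0582, limma). Aldh1l1 of the astrocyte list rose in the tdTomato line (0.45) and was not called in the EYFP (-0.17) and hippocampal (-0.005) lines. Huwe1 was at 12.97 to 13.38 in all libraries, which does not check a deletion of some of its exons. The microglia, endothelium and Schwann cell lists stayed at or under 2.65 in every library. Markers of the oligodendrocyte lineage (Mog, Mbp and Pdgfra) summed on the linear scale to 71.7 to 108 in traced astrocytes, 115 to 179 in hippocampal astrocytes, 106 to 122 in tdTomato NSCs, 161 to 179 in EYFP NSCs and 218 to 247 in hippocampal NSCs, where Pdgfra was higher than in traced NSCs (traced minus hippocampal -0.74, adjusted p = 0.0174, limma). The 4 neuron markers had sums of 130 to 198 in traced astrocytes, 60.3 to 83.9 in hippocampal astrocytes and 44.4 to 58.2 in NSCs. The mesenchyme list (Col1a1, Dcn and Lum) summed to 32.3 to 60.4 in traced and 18 to 20.9 in hippocampal astrocytes. The NSC and astrocyte markers differed between the origins too. In traced astrocytes Gfap (-0.99), Aldh1l1 (-3.30), Nes (-2.67) and Sox2 (-0.30) were lower than in hippocampal astrocytes, and Aldh1l1 was lower in traced NSCs (-3.44, adjusted p = 2.26e-06, limma). The rise on differentiation was smaller in the traced lines for Gfap (-0.90, adjusted p = 0.00289, limma) and Aqp4 (-0.73, adjusted p = 0.00798, limma). The oligodendrocyte, neuron and mesenchyme lists and these 4 markers moved with the origin in astrocytes, and Aldh1l1 and the oligodendrocyte list in NSCs as well, and their part in the results on traced against hippocampal cells was not tested. In bulk RNA, a change in the number of cells and a change in the RNA per cell cannot be told apart.

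The values are on a log2 scale whose transform the sources used here do not name. They have the form of a regularized log, which would pull weakly expressed genes towards their mean over the libraries and understate their differences, and the depth behind a value is unknown. The lowest Hoxa values were near 0.9 for Hoxa11 and near 4.5 for Hoxa10, and which value stands for the absence of reads is not known for any gene.

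On the GRCm38 genome the 9 genes occupy 83.4 kb of chromosome 6, all on the minus strand, from the 3′ end of Hoxa2 to the 5′ end of Hoxa11 (GENCODE M21). Hoxa2 lies at 52162417 to 52164831, Hoxa5 at 52201754 to 52204587, Hoxa7 at 52214491 to 52221854, Hoxa9 at 52223100 to 52231089, Hoxa10 at 52231197 to 52240854 and Hoxa11 at 52242106 to 52245810. Hoxa3 is annotated over 44.3 kb, from 52169062 to 52213336, so that its most distal annotated start lies between Hoxa6 (52206288 to 52208722) and Hoxa7, and Hoxa4 (52189671 to 52191753) and Hoxa5 lie inside its span. The cluster's order is therefore given by the 3′ ends of the genes. RefSeq promoters were matched for 8 of the 9 genes. The 250 bases before the start are shown for genes whose results differ most: Hoxa2, which changed in opposite directions on differentiation in traced and hippocampal cells, Hoxa5, which was the highest per kb of annotated exon in every group, and Hoxa9 and Hoxa10, which differed most between traced and hippocampal cells. They are RefSeq sequences on GRCm38.p6, written 5′ to 3′ on the minus strand, from chr6:52164832-52165081, chr6:52204588-52204837, chr6:52227371-52227620 and chr6:52234940-52235189 in this order. Capitals mark matches, on either strand, to TGATNNAT (a Pbx-Hox site) and TGACAG (a Meis or Pknox site).
Hoxa2: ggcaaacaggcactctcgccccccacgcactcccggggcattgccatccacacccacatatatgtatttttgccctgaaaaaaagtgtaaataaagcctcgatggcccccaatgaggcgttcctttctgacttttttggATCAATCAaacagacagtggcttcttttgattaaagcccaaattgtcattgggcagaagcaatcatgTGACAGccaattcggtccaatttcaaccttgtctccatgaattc
Hoxa5: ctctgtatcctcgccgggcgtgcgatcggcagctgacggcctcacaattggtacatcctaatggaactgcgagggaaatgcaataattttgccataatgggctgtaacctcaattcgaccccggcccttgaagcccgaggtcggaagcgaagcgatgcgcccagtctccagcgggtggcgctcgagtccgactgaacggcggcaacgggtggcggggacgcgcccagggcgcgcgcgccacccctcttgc
Hoxa9: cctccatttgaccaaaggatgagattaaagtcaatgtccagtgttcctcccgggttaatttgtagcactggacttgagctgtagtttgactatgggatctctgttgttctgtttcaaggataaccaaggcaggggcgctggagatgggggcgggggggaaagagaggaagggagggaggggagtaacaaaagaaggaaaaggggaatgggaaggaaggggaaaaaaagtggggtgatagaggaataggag
Hoxa10: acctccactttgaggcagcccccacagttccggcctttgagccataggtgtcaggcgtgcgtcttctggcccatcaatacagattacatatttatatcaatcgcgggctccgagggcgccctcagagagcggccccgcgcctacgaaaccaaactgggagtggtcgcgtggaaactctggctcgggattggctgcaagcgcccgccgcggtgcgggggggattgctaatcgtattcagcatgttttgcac

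The Hoxa2 promoter held a match to each motif, 111 and 44 bases before the start, and they did not overlap. Among the 8 genes, TGATNNAT was in the promoter of 1, Hoxa2, against 7.7% of 32817 promoters of the same length, and TGACAG was in those of 2, Hoxa2 and Hoxa3, against 15.9%. TTTATNG, a site of Cdx and posterior Hox factors, was in none of them, against 9.8%. The promoters ran from 46.4% to 65.2% in GC content, with a median of 52.4% over all promoters, and from 3 CpG dinucleotides in Hoxa9 to 28 in Hoxa5, with a median of 6 over all. These are matches of letters and say nothing of binding.

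**Figure D1:**
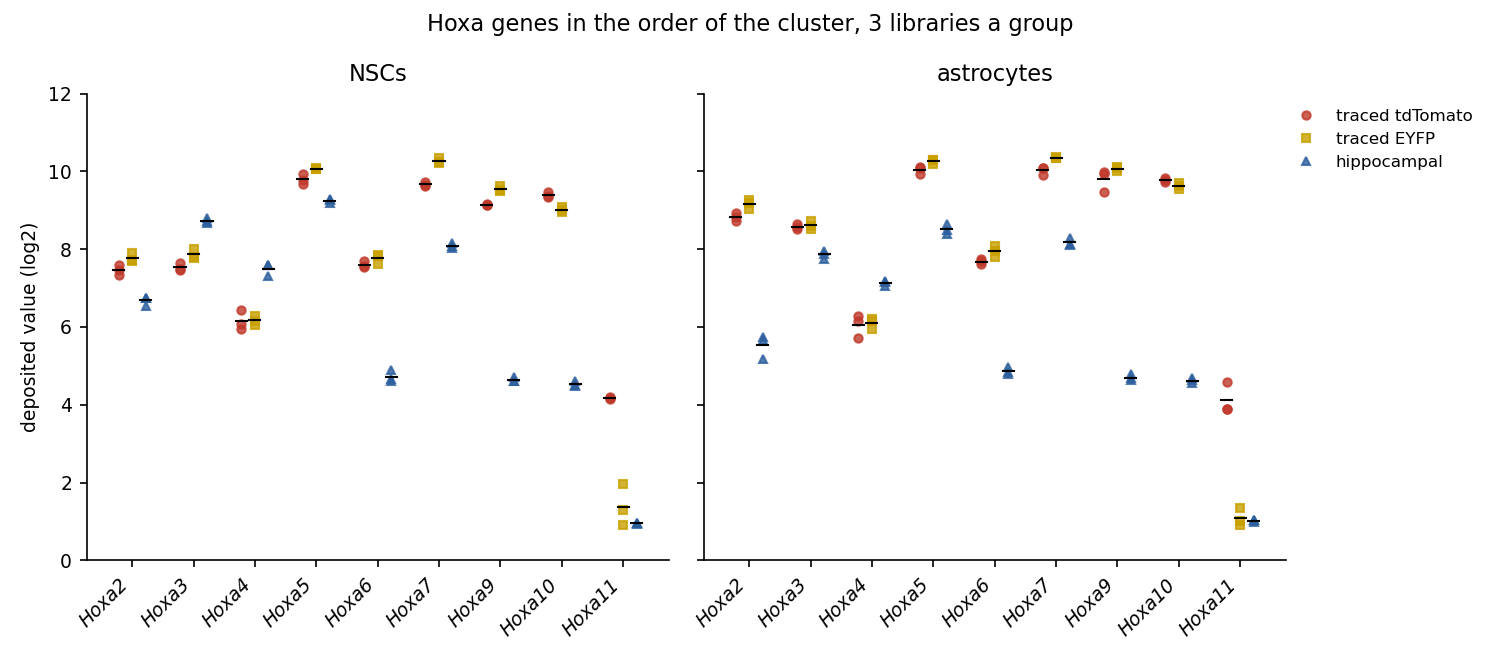
Deposited log2 values of the 9 Hoxa genes in cluster order, with 1 point per library (3 a group) and a black bar at the group mean. In both fates Hoxa6, Hoxa7, Hoxa9 and Hoxa10 of the hippocampal line lay below every traced library, Hoxa4 lay above them, and Hoxa11 stood at 3.88 or more in the tdTomato line alone.

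Levels can be compared between genes only per length. On the linear scale and per kb of annotated exon, Hoxa5 was the highest of the 9 in all 6 groups, at 476 ± 41.5 (SD, n = 3) in tdTomato NSCs, 574 ± 2.11 in EYFP NSCs and 324 ± 11.2 in hippocampal NSCs. Hoxa5 encodes a factor of the cervical and brachial cord. Hoxa7 followed in both traced lines, at 283 ± 8.32 and 429 ± 22.3, and Hoxa11 was the lowest in each traced group. In tdTomato NSCs the order was Hoxa5, Hoxa7, Hoxa6, Hoxa10, Hoxa9, Hoxa2, Hoxa4, Hoxa3 and Hoxa11, and the libraries of Hoxa6 overlapped those of Hoxa10 and the libraries of Hoxa9 those of Hoxa2. The EYFP NSCs had the same order, with Hoxa9 and Hoxa2 overlapping as well as Hoxa4 and Hoxa3. In hippocampal NSCs the order was Hoxa5, Hoxa4, Hoxa7, Hoxa3, Hoxa2 and Hoxa6, with no overlap between neighbours, and Hoxa9, Hoxa10 and Hoxa11 lay below them, where the order among the 3 cannot be read. The deposited mean of Hoxa6 there was 4.72, against 4.65 for Hoxa9 and 4.53 for Hoxa10. Its exon length is 874 bases, against 5580 and 3270. Whether its place above these genes is one of expression cannot be read. Hoxa4 thus stood at 114 ± 11.9 per kb in hippocampal NSCs and at 45.1 ± 8.57 and 45.3 ± 3.66 in the traced NSCs.

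In astrocytes, Hoxa2 reached 257 ± 17.1 per kb in the tdTomato line and 322 ± 26.1 in the EYFP line, and 26.4 ± 5.11 in the hippocampal line. In the tdTomato order it overlapped Hoxa10 above it and Hoxa6 below it, and in the EYFP order Hoxa2 and Hoxa6 overlapped, as did Hoxa6 and Hoxa10. In hippocampal astrocytes the order was Hoxa5, Hoxa7, Hoxa4, Hoxa3, Hoxa6 and Hoxa2, with Hoxa3 and Hoxa6 overlapping, above the same 3 genes. The deposited mean of Hoxa6 was 4.87 there, against 4.70 for Hoxa9 and 4.62 for Hoxa10, so its place above them cannot be read as expression either. With the longest transcript of each gene in place of all its exons, Hoxa7 passed Hoxa5 in EYFP NSCs (607 against 574), Hoxa3 rose to the second place in hippocampal NSCs (164), and Hoxa9, which has 5 annotated transcripts, moved up in EYFP NSCs and in both traced astrocyte groups and stayed in place in tdTomato NSCs.

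**Figure D2:**
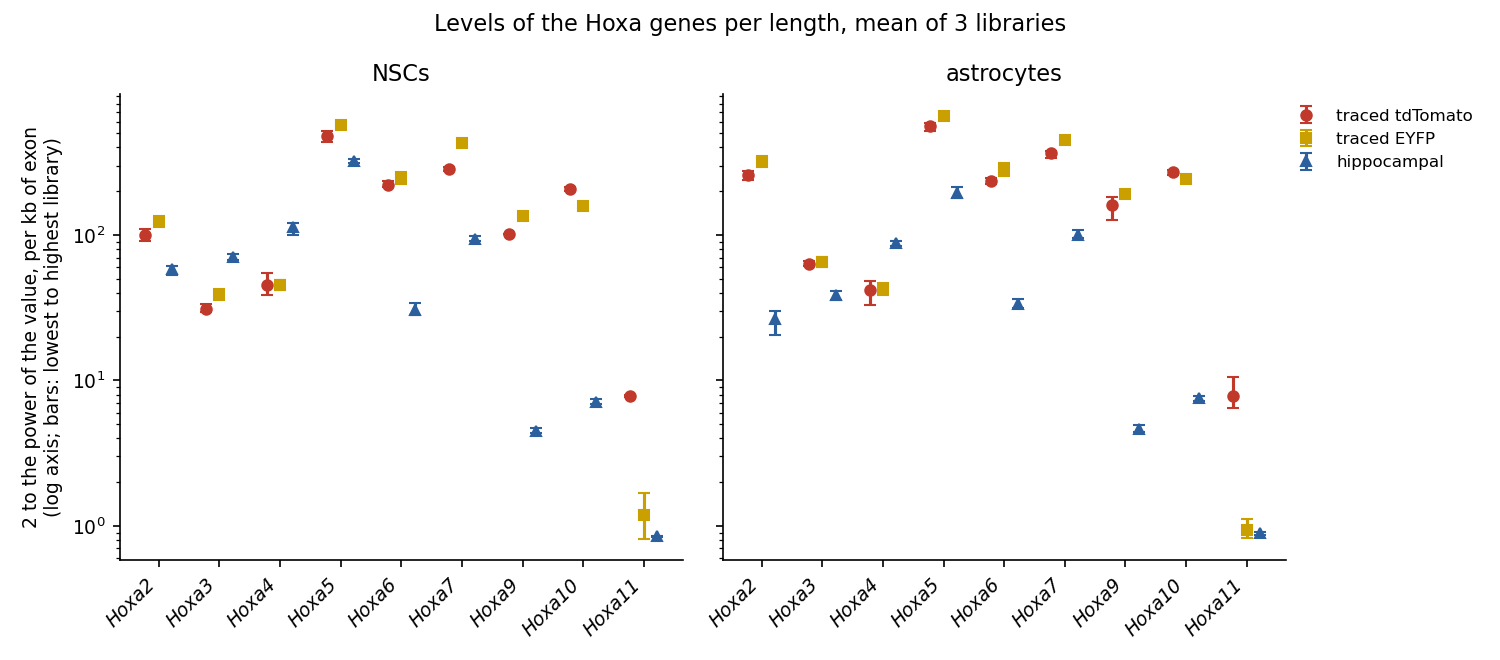
Level of each Hoxa gene per kb of annotated exon (2 to the power of the deposited value, log axis), as the mean of 3 libraries with bars from the lowest to the highest library. Hoxa5 is the highest in each group, and in the hippocampal line Hoxa9 and Hoxa10 lie between 4.36 and 7.84 in every library.

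The first comparison asked how the Hoxa code of spinal cord NSCs differs from that of hippocampal NSCs. Of the 9 genes, 6 were higher in traced NSCs (Hoxa2, Hoxa5, Hoxa6, Hoxa7, Hoxa9 and Hoxa10) and 2 were lower (Hoxa3 and Hoxa4), while 10.6% of 14541 genes tested were higher and 8.81% lower (limma, Benjamini-Hochberg, adjusted p under 0.05, 6 libraries against 3). Hoxa11 passed the filter on low values (a log2 value of 3.32 in 3 libraries) through the tdTomato libraries alone. The median difference of the other 8 genes was 1.41 on the log2 scale, and that of all genes tested was 0.01. The difference was largest for Hoxa9 and Hoxa10 at the 5′ side and had the opposite sign for Hoxa3 and Hoxa4 at the 3′ side.

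The posterior genes Hoxa9 and Hoxa10 were far lower in the hippocampal line. Hoxa9, a factor of thoracic and lumbar levels, was at 9.15, 9.14 and 9.15 in tdTomato NSCs, 9.53, 9.50 and 9.64 in EYFP NSCs and 4.72, 4.62 and 4.61 in hippocampal NSCs. The traced and hippocampal groups did not overlap, and the difference was 4.70 (SE 0.13, adjusted p = 6.09e-09, limma). Hoxa10, which patterns the lumbar cord, was at 9.46, 9.35 and 9.37, then 9.01, 8.95 and 9.09, and then 4.61, 4.50 and 4.49 in the same order, a difference of 4.67 (SE 0.12, adjusted p = 5.31e-09, limma). Few genes of a like level in traced NSCs were as low in the hippocampal line. Among the 2412 genes with a traced mean within 0.5 of that of Hoxa9, its hippocampal mean ranked 4 from the lowest, and among the 2337 around Hoxa10 its mean ranked 3. For Hoxa6 the rank was 17 of 1367 and for Hoxa7 11 of 2554.

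Hoxa6 and Hoxa7, of the middle of the cluster, were lower in the hippocampal line as well, by smaller differences. For Hoxa6 the smaller difference goes with a lower traced mean, 7.68 against 9.35 for Hoxa9 and 9.21 for Hoxa10. The hippocampal means of these genes were close, at 4.72, 4.65 and 4.53. Hoxa6 was at 7.54, 7.57 and 7.69 in tdTomato NSCs, 7.83, 7.62 and 7.84 in EYFP NSCs and 4.66, 4.89 and 4.62 in hippocampal NSCs, a difference of 2.96 (SE 0.10, adjusted p = 3.8e-08, limma). Hoxa7 was at 9.63, 9.66 and 9.71, at 10.23, 10.21 and 10.35 and at 8.07, 8.15 and 8.03 in the same order. Its difference was 1.88 (SE 0.17, adjusted p = 4.63e-05, limma), and it kept a value in hippocampal NSCs above that of 67.3% of all genes. On the deposited scale, the hippocampal value of Hoxa6 was above 54.8% of genes and those of Hoxa9 and Hoxa10 above 54.5% and 54.0%.

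The genes of the 3′ side were retained in the hippocampal line. Hoxa5 was at 9.68, 9.78 and 9.93 in tdTomato NSCs, 10.07, 10.07 and 10.08 in EYFP NSCs and 9.19, 9.26 and 9.29 in hippocampal NSCs, and was above 75.5% of all genes in the last. The difference was 0.69 (SE 0.09, adjusted p = 0.000613, limma). Hoxa2, which acts in the hindbrain and is the most anterior of the 9, was at 7.60, 7.32 and 7.46, at 7.72, 7.70 and 7.90 and at 6.55, 6.74 and 6.75, a difference of 0.94 (SE 0.12, adjusted p = 0.000529, limma). In both genes, every hippocampal library lay below every traced library.

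Hoxa3 and Hoxa4 were higher in hippocampal than in traced NSCs. Hoxa3 was at 8.73, 8.79 and 8.66 in hippocampal NSCs, against 7.47, 7.66 and 7.49 in tdTomato and 7.81, 7.78 and 8.0 in EYFP NSCs. The difference was -1.03 (SE 0.11, adjusted p = 0.000177, limma). Hoxa4 was at 7.32, 7.59 and 7.58 in hippocampal NSCs, against 5.94, 6.07 and 6.45 and 6.06, 6.16 and 6.29, a difference of -1.34 (SE 0.12, adjusted p = 5.11e-05, limma). Neither gene's groups overlapped. Among the 1384 genes with a traced mean near that of Hoxa3, its hippocampal mean ranked 1349 from the lowest, and that of Hoxa4 ranked 825 of 851. Hoxa3 shares 25.42% of its exon bases with transcripts of the opposite strand and Hoxa4 16.0%, and the strand setting of the counting is not given in the sources used here.

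Hoxa11 split the traced lines. It was at 4.18, 4.19 and 4.14 in tdTomato NSCs, at 1.95, 0.90 and 1.30 in EYFP NSCs and at 0.97, 0.97 and 0.95 in hippocampal NSCs. The 6 traced libraries were not called against the hippocampal ones, with a difference of 1.82 (SE 0.81, adjusted p = 0.15, limma). It was called in the model of all 18 libraries, in which the difference between lines does not count as spread, but it entered these tests through the tdTomato libraries alone, so that call supports nothing. The groups overlapped in the EYFP library at 0.90.

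**Figure D3:**
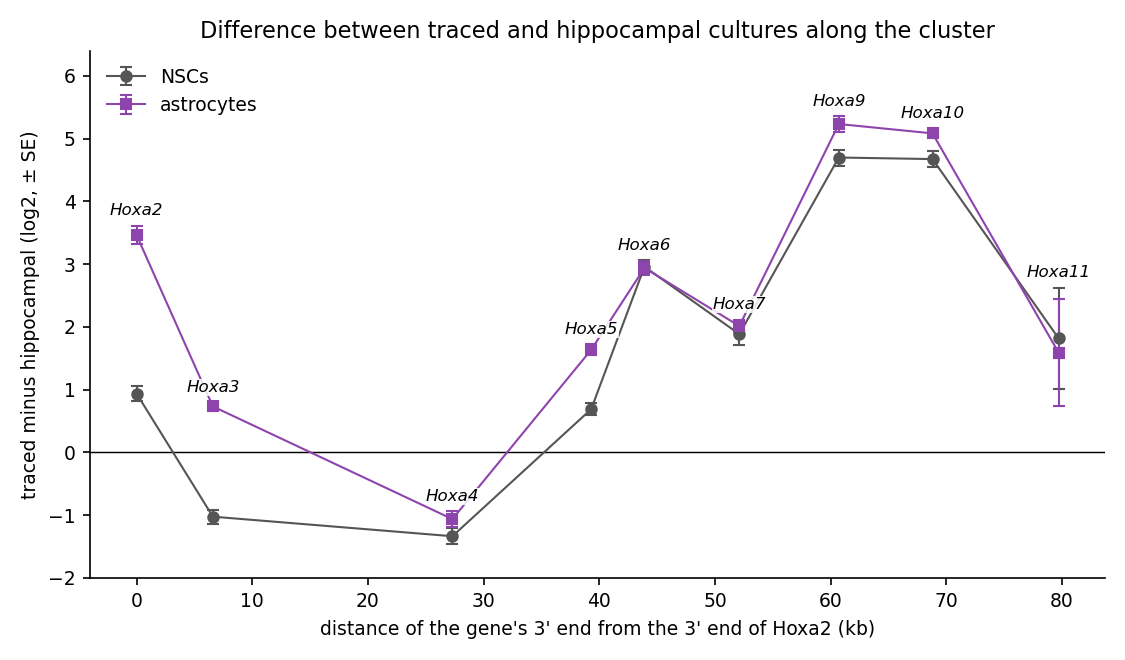
Difference between traced and hippocampal cultures (log2, bars: SE from limma) for each Hoxa gene, placed by the distance of its 3′ end from that of Hoxa2 in kb. Hoxa4 lies below 0 in both fates, Hoxa3 below 0 in NSCs and above it in astrocytes, and Hoxa9 and Hoxa10 lie highest, from 4.67 to 5.23.

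The same comparison in astrocytes gave 7 genes higher in the traced cells (Hoxa2, Hoxa3, Hoxa5, Hoxa6, Hoxa7, Hoxa9 and Hoxa10) and 1 lower (Hoxa4), beside 24.1% of 15025 genes higher and 27.9% lower. The median difference of the 8 genes other than Hoxa11 was 2.48, against -0.01 for all genes. Hoxa9 was at 9.48, 9.92 and 9.99 in tdTomato, 10.00, 10.10 and 10.10 in EYFP and 4.79, 4.68 and 4.64 in hippocampal astrocytes, a difference of 5.23 (SE 0.13, adjusted p = 8.94e-10, limma). Hoxa10 was at 9.77, 9.73 and 9.84, at 9.71, 9.55 and 9.63 and at 4.56, 4.68 and 4.63, a difference of 5.08 (SE 0.07, adjusted p = 2.96e-11, limma). Neither gene overlapped between the origins.

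Hoxa2 stood further apart in astrocytes than in NSCs. It was at 8.74, 8.83 and 8.93 in tdTomato, 9.25, 9.19 and 9.02 in EYFP and 5.19, 5.74 and 5.66 in hippocampal astrocytes, and the difference was 3.46 (SE 0.15, adjusted p = 3.83e-08, limma). Hoxa3 was at 8.52, 8.64 and 8.57, at 8.51, 8.61 and 8.73 and at 7.89, 7.75 and 7.96 in the same order. In NSCs it had been higher in the hippocampal line, and here it was higher in the traced lines by 0.73 (SE 0.07, adjusted p = 1.12e-05, limma). Hoxa4 kept its direction, at 5.71, 6.16 and 6.27, at 6.17, 6.20 and 5.94 and at 7.17, 7.07 and 7.19, a difference of -1.06 (SE 0.13, adjusted p = 6.75e-05, limma).

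Hoxa5 was at 9.92, 10.10 and 10.07 in tdTomato, 10.29, 10.30 and 10.20 in EYFP and 8.39, 8.50 and 8.65 in hippocampal astrocytes, a difference of 1.64 (SE 0.09, adjusted p = 2.11e-07, limma). Hoxa6, at 7.61 to 8.08 in the 6 traced and 4.79 to 4.98 in the 3 hippocampal libraries, differed by 2.94, and Hoxa7, at 9.92 to 10.36 and 8.10 to 8.28, differed by 2.01. All 3 genes were without overlap between the origins, and how many of all genes were so was not counted. Hoxa11 was at 4.60, 3.88 and 3.90 in tdTomato, 0.92, 1.36 and 1.01 in EYFP and 1.04, 1.04 and 0.99 in hippocampal astrocytes. As in NSCs it was not called for the traced lines together (1.59, SE 0.85, adjusted p = 0.142, limma) and was called in the model of all libraries.

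The traced lines also differed from each other, in a comparison that measures 2 lines of the same region. In NSCs, 2 genes were higher in the tdTomato line (Hoxa10 and Hoxa11) and 5 were lower (Hoxa2, Hoxa3, Hoxa5, Hoxa7 and Hoxa9), beside 18% of 14304 genes higher and 15.2% lower. The difference of Hoxa11, 2.78, was the largest, with no overlap between the libraries. Hoxa11 passed the filter through the tdTomato libraries alone, where it is high, so its test with the filter is no support, and with no filter its adjusted p was 0.00877 (SE 0.29, limma). Hoxa10 was higher by 0.38 (SE 0.06, adjusted p = 0.00186, limma), and its neighbour Hoxa9 was lower, at -0.41 (SE 0.05, adjusted p = 0.000794, limma). Hoxa7 was lower by 0.60 (SE 0.05, adjusted p = 0.000131, limma). The calls of Hoxa2 (-0.31, adjusted p = 0.0381, limma), Hoxa3 (-0.32, adjusted p = 0.0246, limma) and Hoxa5 (-0.27, adjusted p = 0.012, limma) were the weakest. Without a filter on low values their adjusted p-values were 0.105, 0.071 and 0.0608 (limma), and the call of Hoxa2 was also lost when any of the EYFP libraries or tdTomato replicate 2 or 3 was left out, with adjusted p-values (limma) from 0.0581 to 0.133, without a trend in the variance (0.0533) and in the model of all 18 libraries (0.0628). Hoxa3 lost its call without tdTomato replicate 1 or 3 or EYFP replicate 1 or 3, with adjusted p-values (limma) from 0.0529 to 0.0824. Hoxa4 and Hoxa6 were not called. Markers differed between these lines as well (adjusted p under 0.05, limma). In tdTomato NSCs, Aqp4 (-1.67), Aldh1l1 (-0.65), Pdgfra (-0.59), Sox2 (-0.58), Emx2 (-0.38) and Lhx2 (-0.25) were lower, and S100b (0.40) and Nes (0.36) were higher. In tdTomato astrocytes Aqp4 was lower (-1.83), and S100b (0.50) and Rbfox3 (0.47) were higher. Their part in the differences between the lines was not tested.

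In astrocytes, Hoxa11 was again higher in the tdTomato line, by 3.03, and again passed the filter through that line alone (with no filter, SE 0.28, adjusted p = 0.00794, limma). In the same direction as in NSCs, Hoxa2 (-0.32), Hoxa5 (-0.23) and Hoxa7 (-0.32, adjusted p = 0.00738, limma) were lower. The background was 5.60% of 14615 genes higher and 5.63% lower. Hoxa9 and Hoxa10 did not overlap between the lines, with differences of -0.27 and 0.15, but were not called (adjusted p = 0.215 and 0.146, limma). Both were called when the replicate number entered the model as a block. Without tdTomato replicate 1 the difference of Hoxa9 was -0.11. The calls of Hoxa2 and Hoxa5 were lost under several alternatives. That of Hoxa2 (adjusted p = 0.032, limma) was lost without tdTomato replicate 1 or 2 or EYFP replicate 1 or 2, with values from 0.077 to 0.112, and also without the filter (0.11), without a trend (0.0749) and in the model of all 18 libraries (0.0926). That of Hoxa5 (adjusted p = 0.0429, limma) was lost without any 1 of the 6 libraries, with values from 0.0623 to 0.131, and without the filter (0.126), without a trend (0.106) and after median centring (0.0515) or quantile normalization (0.0596).

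The third question was how the Hoxa genes change when NSCs become astrocytes. In the tdTomato line 6 of the 9 rose (Hoxa2, Hoxa3, Hoxa5, Hoxa7, Hoxa9 and Hoxa10) and none fell, beside 39.9% of 14727 genes that rose and 39.5% that fell (3 libraries against 3). In the EYFP line 5 of the 8 tested rose (Hoxa2, Hoxa3, Hoxa5, Hoxa9 and Hoxa10) and none fell, beside 37.5% of 14668 genes rising and 37.4% falling. In the hippocampal line none of the 8 tested rose and 4 fell (Hoxa2, Hoxa3, Hoxa4 and Hoxa5), beside 39.2% of 14781 genes rising and 38.2% falling. Hoxa11 did not pass the filter on low values in the EYFP and hippocampal lines. The medians of the genes tested were 0.36, 0.35 and -0.15, against 0.00, 0.00 and 0.01 for all genes.

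The largest changes were those of the 3′ genes Hoxa2 and Hoxa3. Hoxa2 rose by 1.37 in the tdTomato line (SE 0.09, adjusted p = 7.25e-07, limma) and by 1.38 in the EYFP line (SE 0.09, adjusted p = 4.68e-07, limma), which is 2.58-fold and 2.6-fold. In the hippocampal line it fell by 1.15 on the log2 scale (SE 0.17, adjusted p = 0.000118, limma). Hoxa3 rose by 1.04 (SE 0.08, adjusted p = 1.82e-06, limma) and 0.75 (SE 0.09, adjusted p = 4.28e-05, limma) in the traced lines and fell by 0.86 in the hippocampal line (SE 0.08, adjusted p = 4.19e-06, limma). In both genes no astrocyte library overlapped the NSC libraries of the same line.

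Hoxa5 moved less in the traced lines, by 0.23 in tdTomato cells (adjusted p = 0.0152, limma) and 0.19 in EYFP cells (adjusted p = 0.00518, limma), and fell by 0.73 in the hippocampal line (SE 0.08, adjusted p = 1.03e-05, limma). The tdTomato libraries of Hoxa5 overlapped between the fates, and its call there was lost without NSC replicate 1 (adjusted p = 0.0545, limma), without astrocyte replicate 2 (0.0554) and without the filter (0.0715). Hoxa4 fell by 0.36 in the hippocampal line (SE 0.11, adjusted p = 0.0108, limma) and had differences of -0.10 and -0.07 in the traced lines, where it was not called.

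On the 5′ side, Hoxa9 rose by 0.65 in the tdTomato line (SE 0.12, adjusted p = 0.000646, limma) and by 0.51 in the EYFP line (SE 0.06, adjusted p = 2.51e-05, limma), and Hoxa10 by 0.39 (SE 0.05, adjusted p = 0.000105, limma) and 0.61 (SE 0.06, adjusted p = 1.62e-05, limma). In the hippocampal line, where both stood at 4.49 to 4.79 in all libraries, the differences were 0.05 and 0.09. Hoxa7 rose in the tdTomato line (0.36, SE 0.06, adjusted p = 0.000314, limma) and had a difference of 0.08 in the EYFP line and 0.09 in the hippocampal line. Hoxa6 was called in no line, with differences from 0.08 to 0.18. Hoxa11 had a difference of -0.04 in the tdTomato line (SE 0.22).

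**Figure D4:**
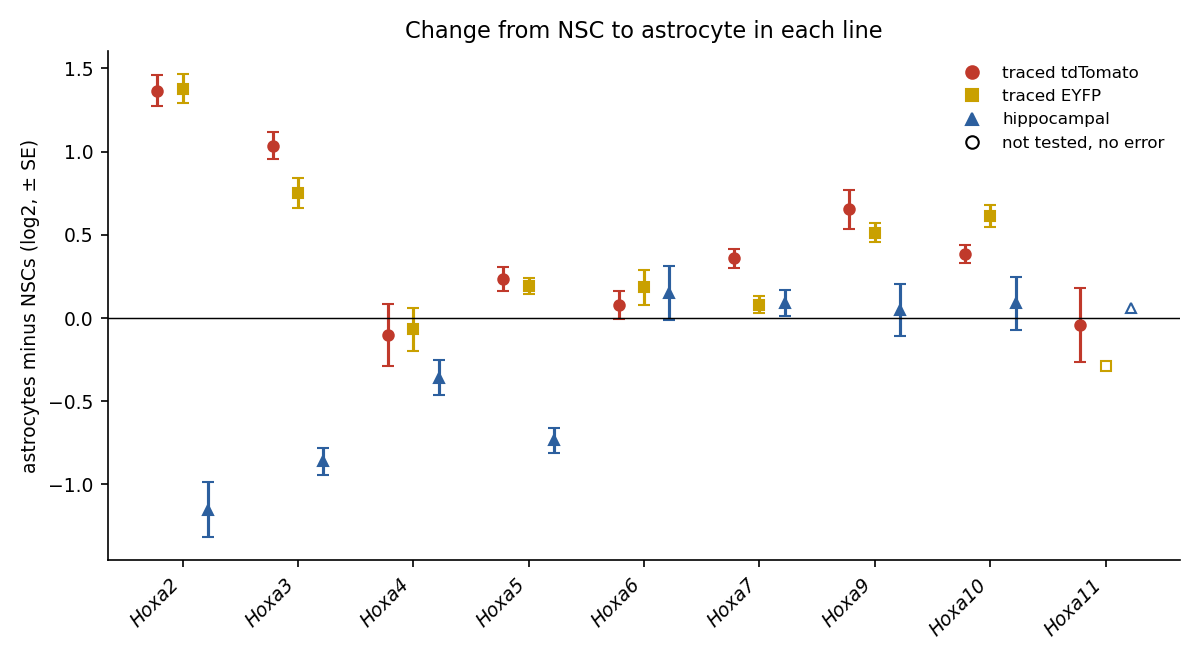
Change from NSC to astrocyte (log2, bars: SE from limma) of each Hoxa gene in each line. Open symbols mark Hoxa11 in the lines where it was not tested. Hoxa2, Hoxa3 and Hoxa5 lie above 0 in both traced lines and below 0, from -1.15 to -0.73, in the hippocampal line.

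The difference between these changes was tested itself, over all 18 libraries. The change of 5 genes was higher in the traced than in the hippocampal lines (Hoxa2, Hoxa3, Hoxa5, Hoxa9 and Hoxa10) and that of none was lower, beside 20.3% of 15448 genes higher and 25.9% lower. By size they were Hoxa2 at 2.53 (SE 0.15, adjusted p = 7.27e-10, limma), Hoxa3 at 1.76 (SE 0.10, adjusted p = 3.82e-10, limma), Hoxa5 at 0.95 (SE 0.08, adjusted p = 8.06e-08, limma), Hoxa9 at 0.53 (SE 0.12, adjusted p = 0.00175, limma) and Hoxa10 at 0.41 (SE 0.08, adjusted p = 0.000684, limma). Over all genes, 43.9% of the calls were higher, and 56.2% when each library was centred on its median. Hoxa6 had a difference of -0.02 and was called higher, at 0.37 (adjusted p = 0.0242, limma), after quantile normalization. Hoxa7, at 0.13 (adjusted p = 0.153, limma), was called at 0.20 after median centring and after quantile normalization (adjusted p = 0.0271 and 0.0315, limma), and without hippocampal astrocyte replicate 3 (0.18, adjusted p = 0.0494, limma).

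Between the traced lines, 1 gene changed differently on differentiation. Hoxa7 rose more in the tdTomato line, by 0.28 (SE 0.08, adjusted p = 0.033, limma), beside 6.36% of 15448 genes higher and 6.98% lower. That call was lost without the filter (adjusted p = 0.0528, limma) and without any 1 of 9 of the libraries of the traced lines (adjusted p = 0.05 to 0.0866, limma). For Hoxa2 the difference between the changes was -0.01 (SE 0.18) and for Hoxa5 0.04 (SE 0.10).

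Reads of overlapping transcripts could enter some of these values. Gm28308, a gene model on the same strand that shares 15.04% of the exon bases of Hoxa2 and 8.01% of those of Hoxa3, had means of 1.06 in tdTomato NSCs, 2.94 in EYFP NSCs and 1.07 in hippocampal NSCs, and of 3.62, 3.09 and 1.12 in the astrocytes. Hoxaas2, on the opposite strand, shares 8.36% of the exon bases of Hoxa3. It rose by 2.69 (SE 0.10, adjusted p = 2.17e-08, limma) in the tdTomato line and by 2.80 (SE 0.11, adjusted p = 1.48e-08, limma) in the EYFP line. In the hippocampal line its NSC libraries were at 5.45, 5.59 and 5.23 and its astrocyte libraries at 5.22, 5.88 and 5.66. 5730596B20Rik, also on the opposite strand, shares 4.86% of the exon bases of Hoxa3. Its means were 3.15, 3.08 and 3.79 in tdTomato, EYFP and hippocampal NSCs, and 5.08, 4.70 and 3.84 in the astrocytes. Too few traced NSC libraries reached the filter for it to be tested between the traced NSCs. It thus passed the filter through hippocampal NSCs or traced astrocytes, where it is high, so those tests are no support and only differences are given. Between traced and hippocampal NSCs its difference was -0.67, with the sign of that of Hoxa3. Hoxaas2 had a difference of -0.07 there (adjusted p = 0.737, limma). From NSC to astrocyte, 5730596B20Rik had differences of 1.93 and 1.62 in the traced lines and of 0.05 in the hippocampal line (adjusted p = 0.851, limma). Both thus moved with Hoxa3 in the traced lines, and their part in the values of Hoxa3 was not tested. Hoxa2 shares no exon bases with either, and Hoxa5, Hoxa6 and Hoxa10 share none with any annotated gene. Hoxaas3 shares 20.38% of the exon bases of Hoxa7 and 4.94% of those of Hoxa3. It had means of 5.04, 5.02 and 5.28 in tdTomato, EYFP and hippocampal NSCs and of 5.06, 5.71 and 4.65 in the astrocytes. Its part in the values of both genes was not tested. Hoxa11os shares 34.98% of the exon bases of Hoxa11.

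The other genes of the locus had patterns of their own. Of 13 genes in and around the cluster, 10 were tested between the origins in NSCs, where 2 were higher and none lower in traced cells, and 9 in astrocytes, where 3 were higher and 3 lower. Over all genes, 10.6% were higher and 8.81% lower in NSCs and 24.1% and 27.9% in astrocytes. Halr1, a long noncoding RNA on the Skap2 side of the cluster, was at means of 4.71, 4.35 and 4.45 in tdTomato, EYFP and hippocampal NSCs and of 2.87, 3.07 and 3.02 in the astrocytes, without overlap between the fates, and it passed the filter through the NSCs alone. Hotairm1, a long noncoding RNA of the 3′ end of the cluster, was at means of 7.59 to 8.26 in the 6 groups and rose by 0.67 in the hippocampal line (adjusted p = 0.000159, limma) and by 0.31 in the tdTomato line (adjusted p = 0.0079, limma), with a difference of 0.10 in the EYFP line (adjusted p = 0.233, limma).

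At the posterior end of the locus, the tdTomato line was the highest. Hoxa13, the most 5′ gene, was at 3.14, 2.51 and 2.33 in tdTomato NSCs, at 1.34, 0.67 and 0.70 in EYFP NSCs and at 0.73, 0.73 and 0.71 in hippocampal NSCs. In tdTomato astrocytes it was at 4.51, 4.34 and 4.20, the only libraries in which it reached the filter, against 1.06, 1.45 and 0.77 in EYFP and 0.80, 0.80 and 0.75 in hippocampal astrocytes. Hoxa11os, antisense to Hoxa11, was at 3.34, 3.37 and 3.38 in tdTomato NSCs and at 1.39, 0.79 and 1.15 in EYFP NSCs, and passed the filter through the tdTomato libraries alone. The libraries of the tdTomato line lay above all others for both. Hottip and Evx1, beyond Hoxa13, were at or under -1.69 in every library.

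**Figure D5:**
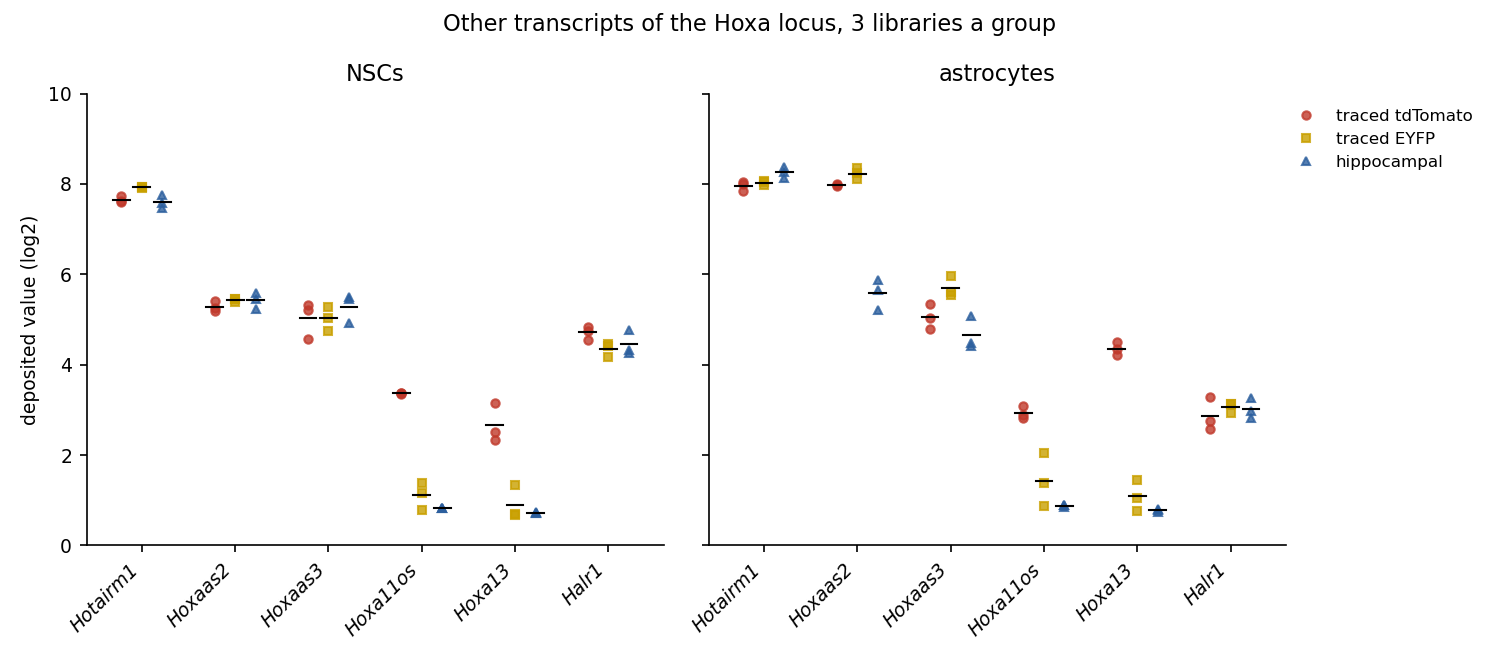
Deposited log2 values of other transcripts of the Hoxa locus, with 1 point per library (3 a group) and a black bar at the group mean. Hoxaas2 lies at 7.96 or more in traced astrocytes and at 5.88 or less in hippocampal astrocytes, and Hoxa13 and Hoxa11os are highest in the tdTomato line.

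In the other Hox clusters, 5 of the 9 Hoxb genes, 5 of the 9 Hoxc genes and 2 of the 4 Hoxd genes tested between the origins in NSCs reached the filter in no hippocampal library. They entered the test through the traced libraries, where they are high, so no count of calls is given for these clusters. Hoxb2 was at 3.21 in hippocampal NSCs and at 7.17 and 7.27 in the traced NSCs, whereas its paralogue Hoxa2 was at 6.68 and at 7.46 and 7.77. Hoxb5 was at 2.46 in hippocampal NSCs and at 5.50 and 5.17 in the traced NSCs. Hoxc11, a paralogue of Hoxa11, was at 7.71 in tdTomato NSCs, 1.87 in EYFP NSCs and 1.83 in hippocampal NSCs.

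Genes with the most similar pattern over the 6 group means, among 15413 genes with a symbol, were found by the root mean square difference after centring each gene on its own mean. For Hoxa2 the nearest was Abcg2, at 0.13 on the log2 scale. For Hoxa5 it was Elmo1 (0.11), for Hoxa3 Ppara (0.15) and for Hoxa7 Dlk1 (0.18). Hoxa9 and Hoxa10 both had Hoxd8 as the nearest (0.23 and 0.20), and each was among the 3 nearest of the other (0.26). The nearest of Hoxa4, Hoxa6 and Hoxa11 were the gene models Gm5869 (0.12), 2210418O10Rik (0.12) and Gm27927 (0.22).

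The TALE cofactors bind DNA with Hox proteins. Of 8 genes, 2 were higher and none lower in traced than in hippocampal NSCs, and 4 were higher and 2 lower in astrocytes, where Pbx3 (1.45, SE 0.08, adjusted p = 3.29e-07, limma) and Meis2 (1.10, SE 0.04, adjusted p = 2.98e-08, limma) differed most. The shares of all genes were 10.6% higher and 8.81% lower in NSCs and 24.1% and 27.9% in astrocytes. On differentiation 4 rose and 3 fell in the tdTomato line, 2 rose and 4 fell in the EYFP line and 3 rose and 3 fell in the hippocampal line, where 37.4% to 39.9% of all genes tested moved in each direction. The calls in both directions, 6 or 7 of 8, are near that background. Meis2 rose in all, by 1.24, 0.77 and 0.22, and Pbx3 fell in all, by 0.68, 1.02 and 1.85.

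Of the genes of retinoid metabolism and other regulators of Hox clusters that were tested, 8 of 13 rose and 2 fell in the tdTomato line, 8 of 11 rose and 2 fell in the EYFP line and 9 of 11 rose and 2 fell in the hippocampal line. Over all genes 37.4% to 39.9% moved in each direction. Dhrs3 and Rxrg entered these tests through the astrocytes, where they are high, so the counts of this list support nothing. Aldh1a1, which makes retinoic acid, rose by 2.76, 2.77 and 2.02 (adjusted p = 9.08e-09, 8.09e-09 and 6.07e-10, limma). Dhrs3, which reduces retinaldehyde, was at means of 3.00, 2.32 and 2.69 in NSCs and 7.45, 6.83 and 4.97 in astrocytes, and Rxrg, a retinoid X receptor, at 1.64, 1.69 and 2.01 and 5.72, 5.72 and 3.45, and of their NSC libraries 1 of Dhrs3 and none of Rxrg reached the filter. Egr2, a regulator of Hoxa2 in the hindbrain, fell by 1.91, 3.10 and 3.26 (adjusted p = 5.39e-06, 4.22e-08 and 9.33e-08, limma).

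Of 24 Polycomb genes, 15 fell in each line, and 7, 6 and 6 rose, with medians of -0.52, -0.37 and -0.32, beside 37.4% to 39.5% of all genes falling and 37.5% to 39.9% rising. Ezh2, the methyltransferase of dividing cells, fell by 2.41, 2.09 and 1.95, and its relative Ezh1 rose by 1.86, 1.70 and 1.73 (all adjusted p under 0.05, limma). Between the origins, 2 Polycomb genes were higher in traced NSCs and none lower, and 3 were higher and 7 lower in astrocytes, beside 10.6% and 8.81% of all genes in NSCs and 24.1% and 27.9% in astrocytes. Of 13 Trithorax and H3K27 demethylase genes, 5, 4 and 4 rose and 6 fell in each line, and 2 were higher in traced NSCs and 5 in traced astrocytes, with 1 lower there, beside the same shares of all genes. In NSCs neither list held a difference between the origins above 0.34 in size.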

How the data were processed

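RNA from 18 cultures, 3 in each of 6 groups, was sequenced as single-end reads of 76 bp per the labels. The paper names another library kit than the labels do. The authors trimmed the reads with Trimmomatic (0.36), aligned them with STAR (2.5.2), estimated counts with RSEM (1.3.0) on GRCm38 and normalized them with DESeq2 (1.18.1, R 3.4.3), by the submitters' processing notes. The table deposited by the authors holds log2 values of the form of a regularized log, a transform that the sources used here do not name. Of the values, 29.4% are below 0. Counts cannot be recovered from them, so depth and counting error are unknown. All libraries were mapped to a group by their labels, and no values were identical between libraries.

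Here, limma (3.58.1, R 4.3.3), its variance following the mean level, was fitted to the deposited values with no pseudocount. Genes that reached 3.32 on the log2 scale (a linear value of 10) in 3 or more libraries of the comparison were kept. P-values were adjusted by Benjamini-Hochberg over all genes tested, with a threshold of 0.05. There were 9 comparisons: traced against hippocampal libraries in each fate, tdTomato against EYFP in each fate, the fates in each line, and 2 differences between changes, fitted over all 18 libraries with 1 mean per group. Comparisons that share libraries are not independent. Groups without overlap are described as such, but the share of all genes without overlap was not counted, so this adds nothing to a call. Levels between genes are 2 to the power of the value, divided by the exon length in GENCODE M21. Gene symbols came from the names supplied with the reference.

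The alternatives were no filter, a filter at 100, pseudocounts of 1 and 10, median centring, quantile normalization, no trend, all libraries in 1 model, the replicate number as a block and each library left out in turn. On simulated data with 200 changed genes, 95.5% to 100% of the changes of 1 (log2) and 74.6% to 92.5% of those of 0.5 were recovered in the 9 comparisons, with 5 to 12 false calls each. The changed genes had a mean of at least 6.64 on the log2 scale, and no other difference between groups or lines was simulated. These shares therefore do not hold for genes of low value or where the traced lines differ. Named in the text were all 9 Hoxa genes, genes of the lists inside the cluster and the largest changes of the other lists, and for likeness the nearest genes over the 6 group means. Hoxb, Hoxc and Hoxd paralogues were named where set beside a Hoxa gene. The members and lists were chosen with earlier results of these data known. Some genes of the lists are not reported here, and the counts and sums were made without them.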

Additional observations from a re-analysis of the deposited data

Results flagged for a closer look

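In the 6 traced astrocyte libraries, Hoxa9 of tdTomato astrocyte replicate 1 was at 9.48, below the other 5 at 9.92 to 10.10, a gap past Dixon's critical value. Of 18 groups of 6 libraries examined 1 stood out in this way, and chance gives about 1 in 20. Without that library the difference of Hoxa9 between traced and hippocampal astrocytes was 5.32, against 5.23 with it, and that between tdTomato and EYFP astrocytes was -0.11, against -0.27.

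The change from NSC to astrocyte differed between the traced and hippocampal lines by the test of that difference (limma) for Hoxa2 (2.53), Hoxa3 (1.76), Hoxa5 (0.95), Hoxa9 (0.53) and Hoxa10 (0.41), and between the tdTomato and EYFP lines for Hoxa7 (0.28). Hoxa2, Hoxa3 and Hoxa5 rose in the traced lines and fell in the hippocampal line.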

How the results depend on the processing

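The alternatives gave 1410 differences of single Hoxa genes, of which 1322 kept their direction and their side of the threshold, 44 lost and 9 gained a call and 35 changed sign. A filter at 100 on the linear scale and a pseudocount of 1 changed no call or sign among the values they gave. The counts of Hoxa genes called for traced against hippocampal cells and for the fates in each line stayed within 1.5 times their value under every alternative. The differences between the traced lines did not. Without a filter, 4 Hoxa genes were called between tdTomato and EYFP NSCs, 2 between their astrocytes, and 0 for the difference in change between these lines, where 3 of the 9 had an unadjusted p under 0.05 (limma). Without a trend in the variance, 2 were called between their astrocytes. Leaving out 1 library gave 4 to 6, 1 to 3 and 0 to 1 calls in the same order, and where it gave 0, 1 to 3 of the 9 had an unadjusted p under 0.05 (limma).

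The values that changed sign were not called, apart from Hoxa6, whose difference in change between traced and hippocampal lines was called at 0.37 after quantile normalization and was 0.053 after median centring and 0.016 with a pseudocount of 10. After median centring, the change of Hoxa11 in the tdTomato line was 0.039 and the difference in change of Hoxa2 between the traced lines 0.016. After quantile normalization, the hippocampal changes of Hoxa6, Hoxa9 and Hoxa10 were -0.22, -0.32 and -0.28. With 1 library left out, the tdTomato minus EYFP difference of Hoxa4 ranged from -0.17 to 0.087 in NSCs and from -0.17 to 0.11 in astrocytes, where that of Hoxa3 ranged from -0.0924 to 0.020. The change of Hoxa4 ranged from -0.21 to 0.066 in the tdTomato line and from -0.12 to 0.013 in the EYFP line, and that of Hoxa11 from -0.28 to 0.079 in the tdTomato line. The difference in change of Hoxa6 between traced and hippocampal lines ranged from -0.10 to 0.034. Between the traced lines, the difference in change ranged from -0.0829 to 0.058 for Hoxa2, from -0.15 to 0.13 for Hoxa4, from -0.015 to 0.11 for Hoxa5 and from -0.039 to 0.49 for Hoxa11. Median centring added calls of Hoxa6 (0.24, adjusted p = 0.0495, limma) and Hoxa7 (0.14, adjusted p = 0.0258, limma) in the EYFP line. The cause was not tested in any of these.

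Over all genes, the count called between traced and hippocampal NSCs was 2822, and 4864 with all 18 libraries in the model and 1657 to 1718 without any 1 of the hippocampal libraries. Of the calls, 54.6% were higher in traced NSCs, and 44.6% after median centring. In astrocytes these shares were 46.4% and 53%. Between tdTomato and EYFP NSCs the count was 4748, 2970 without a filter and 2719 to 2802 without tdTomato replicate 2 or 3 or EYFP replicate 1. Between their astrocytes it was 1641, 975 without a filter and 936 to 1093 without tdTomato replicate 2 or EYFP replicate 1 or 3. For the difference in change between these lines it was 2060, and 1317 without tdTomato NSC replicate 3. The replicate number was not used as a pairing. Over 27 pairs of same-numbered libraries, the correlation of their deviations from the group means was -0.08 to 0.31, with 9 pairs over 0.1, and a library correlated best with its own number in 32 of 36 matches within a fate and in 4 of 18 between fates. When it entered the model as a block, the count between the astrocytes of the traced lines was 3049 and Hoxa9 and Hoxa10 were called there (adjusted p = 0.0285 and 0.0497, limma), and no other Hoxa call changed. Depth is unknown, so what it limits cannot be given.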
